A study of Mus musculus with 10 samples.

Results

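The miR-181 family was followed in mature mouse sperm through its 6 hairpins, mmu-mir-181a-1, mmu-mir-181a-2, mmu-mir-181b-1, mmu-mir-181b-2, mmu-mir-181c and mmu-mir-181d (mmu, for the mouse, is left out from here on), which are 6 of the 1136 miRNA hairpins listed in the libraries. They were taken by name. For each hairpin the reads with and without a genome match were added and scaled to 1000000 clean reads of the library (RPM), and the copies of miR-181a and of miR-181b were also summed. C57BL/6J males received from 4 weeks of age, for 10 weeks, either a control diet with 10% of kcal from fat (CD-F0, 5 samples) or a high-fat diet with 42% of kcal from fat (HFD-F0, 5 samples). Sperm were collected from the tail of the epididymis and the vas deferens, and RNA of 18–30 nt was sequenced. The sources used here do not state whether each sample came from 1 mouse, so the p-values measure the spread between these samples. The CD-F0 libraries held 30431401 to 31586854 clean reads and the HFD-F0 libraries 29558751 to 32178088. The study asked whether the paternal diet alters sperm small RNA, and here the question is put to the miR-181 family. All values are read counts relative to bulk sperm RNA, in which fewer cells of a type and less RNA per cell cannot be told apart.

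A miRNA is a short RNA cut from the stem of a hairpin precursor. It guides Argonaute proteins to messenger RNAs, mainly by pairing of its seed (bases 2 to 8 from the 5′ end), and the bound messenger RNA is repressed. Each hairpin can give a strand from its 5′ arm (5p) and one from its 3′ arm (3p). The miR-181 family is best known from lymphocytes, where it tunes T cell receptor signalling during T cell development, and it is also expressed in many other tissues.

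The 5p strands are shown with their seeds in capitals because they show what the family shares and where reads of its members can be confused. All sequences were read from RefSeq entries for GRCm38.p6.
miR-181a-5p: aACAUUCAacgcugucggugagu
miR-181b-5p: aACAUUCAuugcugucgguggguu
miR-181c-5p: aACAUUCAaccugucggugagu
miR-181d-5p: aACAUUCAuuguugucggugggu
These 4 strands have 1 seed, ACAUUCA, and no other of the 1679 mature mouse miRNAs in the RefSeq table has it. Outside the seed they differ. With positions counted from 1 at the 5′ end and the first-named miRNA's base written first, miR-181a-5p and miR-181b-5p differ by A9U, C10U and A21G, and miR-181b-5p and miR-181d-5p differ by C12U alone over the 23 bases that both cover. miR-181c-5p differs from miR-181a-5p by an edit distance of 1 over the whole strand. Both copies of miR-181a give the same 5p strand, and so do both copies of miR-181b.

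The 3p strands are shown because the copies of one miRNA differ there in sequence.
miR-181a-1-3p: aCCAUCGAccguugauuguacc
miR-181a-2-3p: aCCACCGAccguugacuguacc
miR-181b-1-3p: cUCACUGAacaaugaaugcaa
miR-181b-2-3p: cUCACUGAucaaugaaugcaaa
The 3p strands of the miR-181a copies differ by U5C and U16C, and the first of these lies in the seed. Those of the miR-181b copies share a seed and differ by A9U over the 21 bases that both cover. The deposited values are given per hairpin, with the reads of both arms together, so the levels of 5p and 3p strands were not analysed here.

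The 6 hairpins lie as 3 pairs of an a or c member and a b or d member. In GRCm38 coordinates, Mir181a-1 (chr1:137966455-137966541) and Mir181b-1 (chr1:137966639-137966718) lie on the plus strand of chromosome 1 with 97 bases between them, inside introns of the non-coding gene Gm4258, and Mir181b-1 also overlaps an exon of the long non-coding RNA gene A430106G13Rik. On chromosome 2, Mir181a-2 (chr2:38852735-38852810) and Mir181b-2 (chr2:38853830-38853918) lie on the plus strand with 1019 bases between them. That pair sits in an intron of Nr6a1, which encodes germ cell nuclear factor and is transcribed from the opposite strand. On chromosome 8, Mir181c (chr8:84178873-84178961) and Mir181d (chr8:84178716-84178787) lie on the minus strand with 85 bases between them, in an intron of Nanos3, a gene for an RNA-binding protein of germ cells that is transcribed from the same strand.

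All 6 hairpins were detected in all 10 libraries and all 6 passed the filter on low counts. The miR-181a hairpins were the most abundant members, mir-181c followed, and the miR-181b hairpins and mir-181d were the least abundant. By mean RPM over the 10 libraries, mir-181a-1 ranked 81, mir-181a-2 82, mir-181c 98, mir-181b-2 171, mir-181d 174 and mir-181b-1 175 among the 1136 hairpins. The family total was 1162 ± 185 RPM (SD, n = 5) in CD-F0 sperm and 1108 ± 256 RPM (SD, n = 5) in HFD-F0 sperm, which was 0.687% ± 0.101 and 0.593% ± 0.0801 of all miRNA reads. For comparison, the miR-30 family summed to 2822 ± 597 RPM (SD, n = 5) and 3792 ± 446 RPM (SD, n = 5), and the let-7 family to 29910 ± 3173 RPM (SD, n = 5) and 39665 ± 5411 RPM (SD, n = 5). The miR-181 total was therefore below that of either family in both groups.

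The summed miR-181a copies stood at 917.9, 659.0, 1036, 794.9 and 559.6 RPM in CD-F0 replicates 1 to 5, and at 980.8, 608.8, 682.2, 922.4 and 567.8 RPM in HFD-F0 replicates 1 to 5. The highest of the 10 libraries was 1.85 times the lowest, and the groups overlapped along nearly their whole range. For mir-181c the values were 242.6, 250.1, 222.1, 235.7 and 264.2 RPM in CD-F0 sperm and 340.1, 198.8, 212.0, 217.0 and 187.2 RPM in HFD-F0 sperm. Here the CD-F0 libraries lay close together, HFD-F0 replicate 1 was above all of them, and the other 4 HFD-F0 libraries were below all of them.

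The summed miR-181b copies stood at 100.1, 65.7, 75.7, 99.6 and 78.1 RPM in CD-F0 sperm and at 96.3, 83.8, 72.1, 97.9 and 69.3 RPM in HFD-F0 sperm. For mir-181d the values were 48.8, 34.8, 36.2, 47.5 and 40.8 RPM in CD-F0 sperm and 47.0, 41.6, 34.9, 46.4 and 35.1 RPM in HFD-F0 sperm. For both, CD-F0 replicates 1 and 4 and HFD-F0 replicates 1 and 4 were the high libraries, and the groups overlapped. The 95% Wilson interval of a single hairpin in a single library reached at most 6.19% of the measured value from its own centre. With each read taken as independent, counting error was therefore small beside the spread between libraries. These intervals cover counting error only. Whether unique molecular identifiers were collapsed, on which the independence of reads depends, is not stated in the sources used here.

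**Figure D1:**
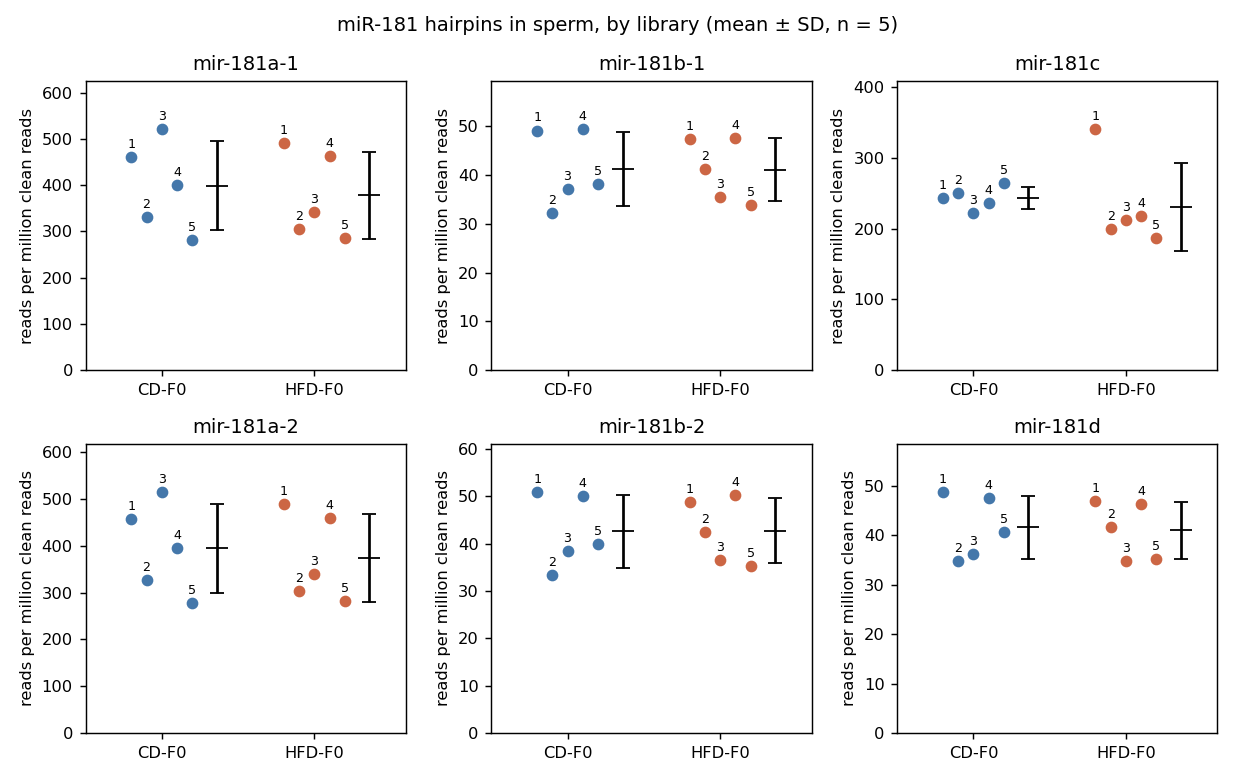
Level of each miR-181 hairpin (vertical axis, RPM of clean reads, starting at 0) in the 5 CD-F0 and 5 HFD-F0 libraries (horizontal axis). Points are libraries with their replicate numbers, and bars give the mean ± SD of the group. The groups overlap for every hairpin, and HFD-F0 replicate 1 stands at 340.1 RPM for mir-181c while the other 4 HFD-F0 libraries lie between 187.2 and 217.0 RPM.

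The members held 1 order of abundance in every library. The summed miR-181a copies were above mir-181c, mir-181c was above the summed miR-181b copies and these were above mir-181d in 10 of 10 libraries. The miR-181a copies exceeded mir-181c 3.23-fold (mean log2 difference 1.69, SD 0.33), mir-181c exceeded the miR-181b copies 2.82-fold (1.50, SD 0.27) and the miR-181b copies exceeded mir-181d 2.02-fold (1.02, SD 0.06). The first and second steps each had p = 0.00195 in a two-sided paired exact permutation test over the 10 libraries, which is the smallest value this test can give. The order tested was taken from the mean levels in these same libraries and was not set beforehand. The last step is given as a value with no test, since some reads of these hairpins are shared out by the counting. The size of the second step depends on that sharing too. Summed with mir-181d, the miR-181b copies reached at most 148.9 RPM in a library, below the lowest mir-181c value of 187.2 RPM. The mature 5p strands are of nearly equal length, so reads were not divided by length.

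The mean make-up of the family differed between the groups by less than the spread between libraries. The miR-181a copies made up 67.6% ± 6.00 (SD, n = 5) of the miR-181 reads in CD-F0 sperm and 67.7% ± 2.58 (SD, n = 5) in HFD-F0 sperm. The share of mir-181c was 21.5% ± 4.81 (SD, n = 5) and 20.9% ± 2.37 (SD, n = 5). The miR-181b copies had 7.28% and 7.69%, and mir-181d 3.64% and 3.77%. These shares sum to the whole and so are not independent of each other.

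**Figure D2:**
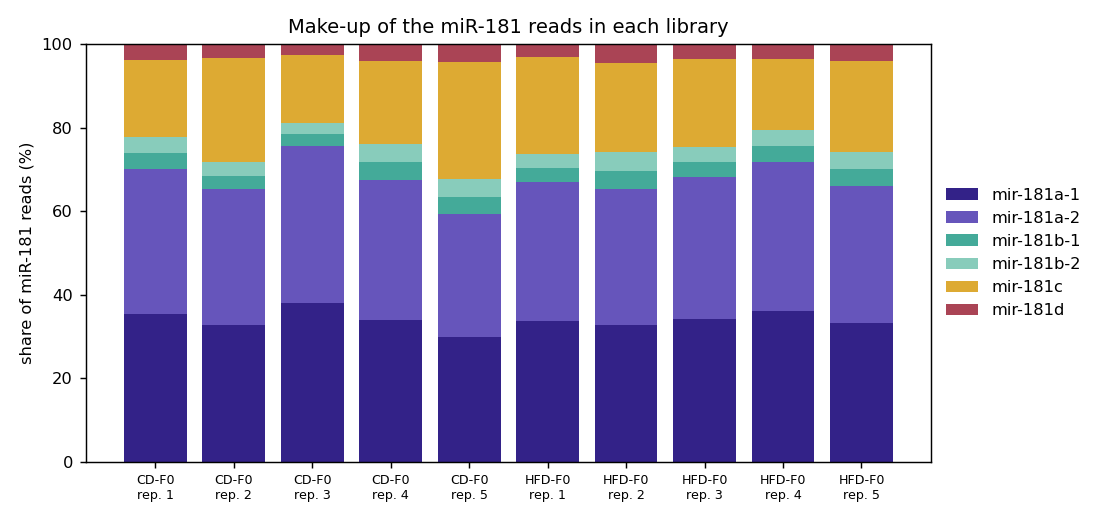
Share of the miR-181 reads held by each hairpin (vertical axis, percent, stacked to 100) in each of the 10 libraries (horizontal axis). The miR-181a copies hold the largest share in every library, with means of 67.6% in CD-F0 sperm and 67.7% in HFD-F0 sperm, and mir-181c holds the next largest, with means of 21.5% and 20.9%.

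The levels of the separate copies rest on how reads were divided between hairpins. A read that fits several hairpins is split between them, and the alignment allowed 1 mismatch. The miR-181a-5p strand was found within 1 mismatch only in Mir181a-1 and Mir181a-2 among the 1005 hairpins of the RefSeq table. Both miR-181b-5p and miR-181d-5p were found within 1 mismatch in Mir181b-1, Mir181b-2 and Mir181d. The Mir181c hairpin was not searched here. The values followed the same grouping. mir-181a-1 exceeded mir-181a-2 in 10 of 10 libraries, but by only 67.5 to 178 reads, or 0.260% to 0.653% of their sum. mir-181b-2 exceeded mir-181b-1 in 10 of 10 libraries by 25 to 86.5 reads, or 0.798% to 2.76% of their sum.

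The reads of mir-181d were also nearly those of 1 miR-181b copy, at 0.962 to 1.08 times mir-181b-1 and 0.923 to 1.04 times mir-181b-2 over the libraries. In 5 of the 10 libraries, the same ones for all of them, the values of mir-181b-1, mir-181b-2 and mir-181d fell on fractions that a read cut into 3 or 6 equal parts gives (within 0.06 of a read), and those of mir-181a-1, mir-181a-2 and mir-181c did so in none. The level of mir-181d can therefore not be told apart from that of the miR-181b copies in these values, and the 2.02-fold step between them is close to what an even split between 3 hairpins gives. Taken as 1 pool, mir-181b-1, mir-181b-2 and mir-181d stood at 125.5 ± 21.6 RPM (SD, n = 5) in CD-F0 sperm and 124.9 ± 19.1 RPM (SD, n = 5) in HFD-F0 sperm.

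**Figure D3:**
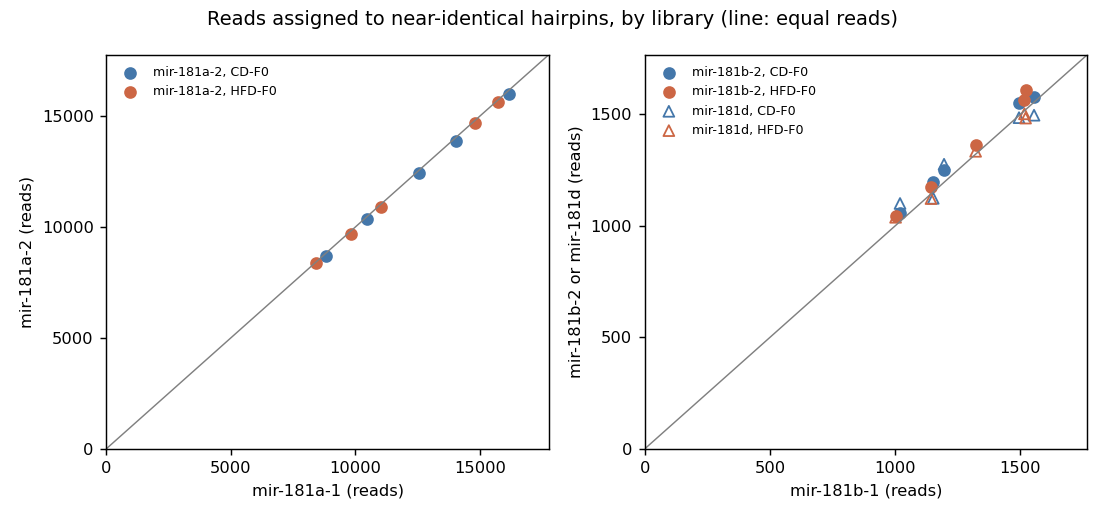
Reads assigned to hairpins with the same or nearly the same 5p strand, 1 point per library and hairpin, with the line of equal reads. Left, mir-181a-2 against mir-181a-1, which lie within 0.653% of their sum of each other. Right, mir-181b-2 (filled circles) and mir-181d (open triangles) against mir-181b-1, where the ratio of mir-181d to mir-181b-1 runs from 0.962 to 1.08.

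No miR-181 hairpin passed the test between the HFD-F0 and CD-F0 groups. With edgeR's quasi-likelihood test over 814 small RNA features, 0 of the 6 passed the unadjusted threshold of 0.05 together with an absolute log2 fold change of at least 1, a rule that 15 of the 529 miRNA hairpins tested (2.84%) and 30 of the 814 features (3.69%) passed. At the unadjusted threshold of 0.05 alone 0 of the 6 passed, against 51 of the 529 miRNA hairpins (9.64%), and DESeq2 also called 0 by either rule. After Benjamini-Hochberg adjustment over all features 0 of the 6 and 0 of the 529 miRNA hairpins were below 0.05. The RPM ranges of the groups overlapped for all 6, whereas they did not for 17 of the 529 hairpins (3.21%), of which 15 (2.84%) were higher and 2 (0.378%) lower in HFD-F0 sperm.

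The fitted changes were small, and their 95% intervals stayed within a 2-fold change in either direction. For mir-181a-1 the group means were 399.0 ± 96.4 and 377.8 ± 93.8 RPM (SD, n = 5 each), and the log2 fold change in edgeR was −0.19 (SE 0.20, 95% interval −0.64 to 0.25, adjusted p = 0.815). For mir-181a-2 the means were 394.5 ± 95.4 and 374.6 ± 93.7 RPM, with a log2 fold change of −0.19 (SE 0.20, −0.64 to 0.26, adjusted p = 0.820 in edgeR). These are nearly the same reads and so are not separate measurements. For the summed miR-181a copies the log2 fold change was −0.19 (SE 0.20, −0.63 to 0.25, adjusted p = 0.812 in edgeR). It was −0.08 with clean reads as library size and no TMM (edgeR's scaling between libraries), and ran from −0.30 (without CD-F0 replicate 5) to −0.10 (without CD-F0 replicate 1) with 1 sample left out. The mean RPM was 41.1 lower in HFD-F0 sperm, at 752.4 ± 187.5 against 793.5 ± 191.8 (SD, n = 5 each, p = 0.738, two-sided exact permutation test). This direction turned with a single library, to 19.6 RPM higher without CD-F0 replicate 3 and 5.02 RPM higher without HFD-F0 replicate 5.

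For the summed miR-181b copies the log2 fold change was −0.11 (SE 0.19, −0.54 to 0.31, adjusted p = 0.916 in edgeR). The mean RPM was 83.8 ± 15.3 in CD-F0 sperm and 83.9 ± 13.3 in HFD-F0 sperm (SD, n = 5 each, p = 1, exact permutation test). mir-181b-1 and mir-181b-2 had log2 fold changes of −0.12 and −0.11 (SE 0.20 each, adjusted p = 0.914 in edgeR for both), and mir-181d had −0.13 (SE 0.19, −0.54 to 0.27, adjusted p = 0.907 in edgeR), with 41.6 ± 6.37 and 41.0 ± 5.86 RPM (SD, n = 5 each). With 1 sample left out, mir-181d ran from −0.24 (without CD-F0 replicate 2) to −0.03 (without CD-F0 replicate 1) and mir-181b-1 from −0.24 to −0.0041, also without these libraries. Without CD-F0 replicate 1, mir-181b-2 and the summed miR-181b copies turned to 0.0061 and 0.00055. The fitted values of all 6 hairpins were below 0, with a median of −0.16 against −0.05 over the miRNA hairpins and −0.01 over all features, and 55.4% of the miRNA hairpins were below 0. With clean reads as library size and no TMM, mir-181b-2 and the summed miR-181b copies also turned to the other side of 0, at 0.0045 and 0.00047 on the log2 scale. The largest of the absolute values among the members was larger than that of 254 of the 529 miRNA hairpins.

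**Figure D4:**
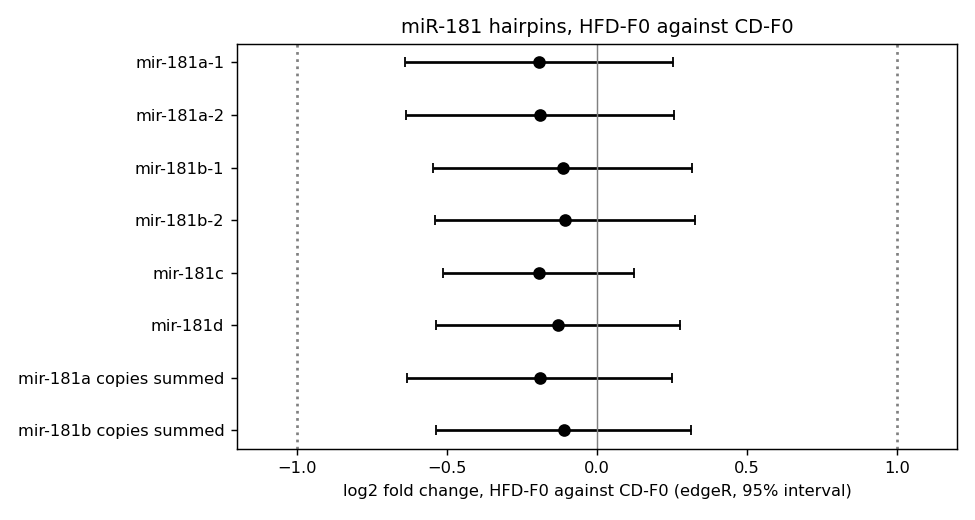
log2 fold change of HFD-F0 against CD-F0 (horizontal axis, edgeR) for each miR-181 hairpin and for the summed copies. Points are the fitted values, bars the 95% intervals, and dotted lines mark the threshold of 1 in either direction. All intervals contain 0 and none reaches a dotted line, the lowest bound being −0.64.

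For mir-181c the comparison turned on a single library. The group means were 242.9 ± 15.8 RPM in CD-F0 sperm and 231.0 ± 62.1 RPM in HFD-F0 sperm (SD, n = 5 each, p = 0.762, exact permutation test), and the log2 fold change in edgeR was −0.19 (SE 0.15, −0.51 to 0.12, p = 0.208, adjusted p = 0.675), or −0.07 with clean reads as library size and no TMM. The coefficient of variation was 6.49% in CD-F0 sperm and 26.9% in HFD-F0 sperm, and 6.61% in HFD-F0 sperm without replicate 1. Without that library the HFD-F0 mean was 203.7 ± 13.5 RPM (SD, n = 4), 0.839 times the CD-F0 mean (p = 0.0159 by two-sided exact permutation), an alternative chosen after the values were seen. The HFD-F0 libraries that remain were already seen to lie below all CD-F0 libraries, so this p restates that order and nothing is concluded from it. The edgeR fit without it gave a log2 fold change of −0.34 (SE 0.13, adjusted p = 0.309), which passed the unadjusted threshold of 0.05 as did 8.15% of the miRNA hairpins in the lower direction at that setting.

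HFD-F0 replicate 1 also had the most miRNA reads, 7532696, against 4283714 to 6090902 in the other HFD-F0 and 4842455 to 5657647 in the CD-F0 libraries. Relative to miRNA reads, mir-181c stood at 1441 ± 137 RPM of miRNA reads in CD-F0 sperm and 1229 ± 149 in HFD-F0 sperm (SD, n = 5 each), 0.853-fold, with p = 0.0556 in the exact permutation test. On that scale 3 of the 5 HFD-F0 libraries lay below all CD-F0 libraries, and replicate 1 lay inside their range. Relative to annotated reads the p was 0.698 and relative to genome-matched reads 0.421, both in the exact permutation test. The denominators other than clean reads were tried for mir-181c after its values were seen.

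**Figure D5:**
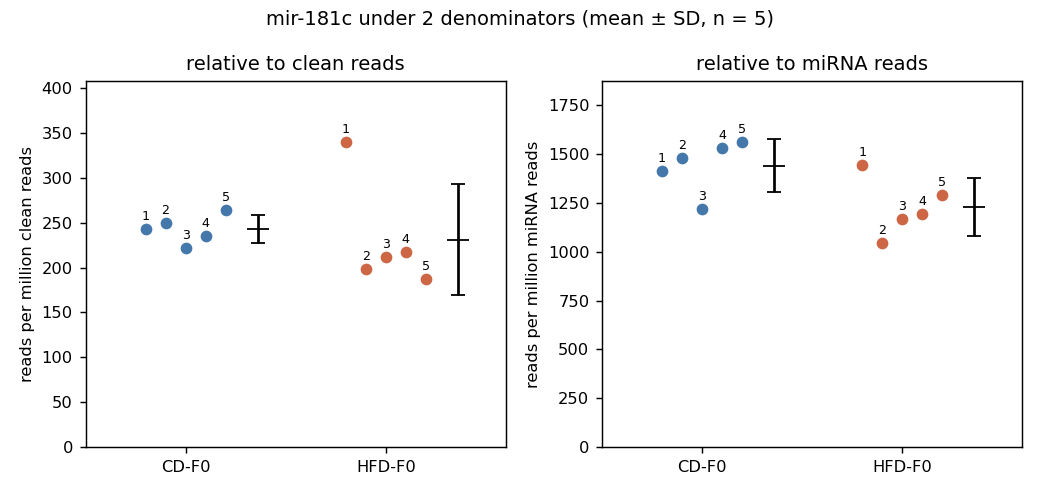
mir-181c in each library (points with replicate numbers) relative to clean reads (left, RPM) and to miRNA reads (right, RPM of miRNA reads), both axes starting at 0, with the mean ± SD of each group. The group means are 242.9 and 231.0 on the left and 1441 and 1229 on the right, and HFD-F0 replicate 1 lies above all CD-F0 libraries on the left only.

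Ratios between members, which do not depend on a denominator, were compared as well. The miR-181a copies were 9.61 ± 2.53 times the miR-181b copies in CD-F0 sperm and 8.91 ± 1.16 times in HFD-F0 sperm (SD, n = 5 each, p = 0.714 on the log2 scale, exact permutation test), with single libraries from 7.17 to 13.7. The size of this ratio depends on how reads were divided between the miR-181b copies and mir-181d. The ratio of mir-181c to mir-181d was 5.94 ± 0.971 and 5.62 ± 1.07 (SD, n = 5 each, p = 0.627, exact permutation test), although mir-181d carries the split reads described above. For mir-181b-1 to mir-181b-2 it was 0.967 ± 0.0103 and 0.963 ± 0.0110 (p = 0.611, exact permutation test). The ratio of mir-181a-1 to mir-181a-2 was 1.011 ± 0.00102 in CD-F0 sperm and 1.009 ± 0.00244 in HFD-F0 sperm (SD, n = 5 each, p = 0.0556, exact permutation test). That last ratio rests on the small excess of mir-181a-1, which was 4.48 ± 1.03 RPM in CD-F0 sperm and 3.13 ± 0.683 RPM in HFD-F0 sperm. These are 4 ratios, and with all libraries none passed 0.05 before adjustment. Without HFD-F0 replicate 2 the ratio of mir-181a-1 to mir-181a-2 had p = 0.00794 (exact permutation test), the smallest possible at those group sizes. That library, at 1.012, was the only HFD-F0 library inside the CD-F0 range. This p therefore restates the order of the libraries that remain, and nothing is concluded from it. Without CD-F0 replicate 3 the difference in the miR-181a to miR-181b ratio turned to 0.05 on the log2 scale.

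Over the 10 libraries, the other members followed the summed miR-181a copies loosely, with Pearson correlations of log2(RPM + 1) of 0.59 for mir-181b-1, 0.59 for mir-181b-2, 0.48 for mir-181d and 0.39 for mir-181c. Spearman's rho was lower, at 0.41, 0.44, 0.39 and 0.22 in the same order. Of the 284 hairpins outside the family with a mean of at least 10 RPM, the 5 most like the miR-181a copies were mir-490 (r = 0.86, Spearman's rho 0.92), mir-99b (0.73 and 0.73), mir-196b (0.69 and 0.50), mir-322 (0.67 and 0.70) and mir-26a-1 (0.65 and 0.64). Without the 2 libraries farthest from the median of the miR-181a copies, HFD-F0 replicate 1 and CD-F0 replicate 3, r was 0.83 for mir-490 and 0.78 for mir-99b but 0.48 for mir-322, 0.35 for mir-196b and 0.34 for mir-26a-1. mir-490 was a low-level hairpin at 17.2 RPM on average, and mir-99b stood at 129.5 RPM. These correlations are descriptions of 10 libraries of both groups, picked as the highest of many.

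Hairpins that mark other cells of the tract were read beside the family, since a sperm pellet can carry them. All listed hairpins were found, and none was at 0. The 10 testicular germ cell hairpins, led by mir-449a with 50.5% of their reads, summed to 13202 ± 1138 RPM (SD, n = 5) in CD-F0 sperm and 11978 ± 3180 RPM (SD, n = 5) in HFD-F0 sperm, and 0 of 10 passed the unadjusted threshold of 0.05 in edgeR. Of these 10, 4 had fitted values above 0 and 6 below 0, with a median log2 fold change of −0.01. The 6 epithelial hairpins, the miR-200 family and mir-205, led by mir-429 with 38.4%, summed to 5519 ± 1194 and 6890 ± 1574 RPM (SD, n = 5 each), with 0 of 6 passing. All 6 had fitted values above 0, with a median log2 fold change of 0.29. The 6 muscle hairpins, of which mir-143 held 94.9%, summed to 26111 ± 3613 and 29202 ± 8232 RPM (SD, n = 5 each).

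In the muscle list 1 of 6 passed the same threshold, mir-145a, a smooth muscle miRNA, which was higher in HFD-F0 sperm (log2 fold change 1.09, adjusted p = 0.293 in edgeR). Of the other muscle hairpins, mir-143 was at 0.02 and mir-1a-1, mir-1a-2, mir-133a-1 and mir-133a-2 were below 0, and the median log2 fold change of the 6 was −0.02. The 7 blood and immune hairpins, led by mir-146a with 55.95%, summed to 4518 ± 802 and 4800 ± 1140 RPM (SD, n = 5 each). There 1 of 7 passed, mir-223, a miRNA of granulocytes and monocytes, which was higher in HFD-F0 sperm (log2 fold change 0.44, adjusted p = 0.225 in edgeR) with no overlap between the groups. Of the 7, 5 had fitted values above 0 and 2 below 0, and the median log2 fold change was 0.21. The 2 below 0 were mir-146a, the lead member, at −0.07 and mir-451a at −0.29. Of all miRNA hairpins tested, 4.91% passed that threshold with higher values in HFD-F0 sperm. HFD-F0 replicate 1, the library high in mir-181c, was also the highest of the 10 for the germ cell list at 16977 RPM. The same held for the epithelial list at 9463 RPM and the muscle list at 36525 RPM. For the blood and immune list it stood at 5589.6 RPM, below HFD-F0 replicate 2 at 6033 RPM. These sums are relative to clean reads, of which miRNA reads made up 23.5% in HFD-F0 replicate 1 and 14.5% to 19.0% in the other libraries. The lists were not taken relative to miRNA reads. The part of these cells in the miR-181 values was not tested.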

How the data were processed

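Small RNA libraries of 5 CD-F0 and 5 HFD-F0 sperm samples were analysed, grouped by their titles. Per the study's methods, RNA of 18–30 nt received adapters with unique molecular identifiers and was sequenced by DNBSEQ. Whether identifiers were collapsed is not stated in the sources used here. The authors assigned clean reads to RNA classes with SPORTS and Bowtie, allowing 1 mismatch, and the submitters' processing notes name the build mm10. The deposited values are estimated counts per hairpin, not normalized, since a read fitting several hairpins is split between them. Between 37.3% and 39.8% of the values in a library were not whole, and they were rounded before count tests. RPM was computed from the unrounded values.

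All 1468 non-overlapping features were put in 1 table with the total of annotated features as library size. After filterByExpr, 814 features (529 miRNA hairpins) were tested with edgeR 4.0.16 (TMM, quasi-likelihood test) in R 4.3.3, without covariates, at the study's thresholds (unadjusted 0.05 and an absolute log2 fold change of at least 1), with Benjamini-Hochberg adjustment over all features. Standard errors were derived from the F statistic. DESeq2 1.42.0 served as an alternative, as did another library size, filter or set of features, genome-matched reads, leaving out each sample and a replicate block. Exact permutation tests between groups enumerated every assignment of the libraries to groups of the given sizes, those of the order of levels every sign flip within libraries, and the enumeration was checked against scipy 1.17.1. The edgeR step was tested on simulated data. Every pair of libraries differed beyond sampling noise, the chi-square per degree of freedom being 508 or more over the 45 pairs.

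The named hairpins were the family, the 5 hairpins most like the miR-181a copies, and from the lists of cell markers the most abundant member and each one that passed the unadjusted threshold or had groups that did not overlap. The members and lists were chosen with earlier results of these data known. Sequences came from RefSeq (GRCm38.p6), where Mir181c is matched by its mature strands and position, and surrounding genes from GENCODE M21.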

Additional observations from a re-analysis of the deposited data

Results flagged for a closer look

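Of 26 sets of 5 samples examined for a library standing apart by Dixon's criterion (a gap to the nearest sample above 0.71 of the group's range), 2 held one, and chance gives about 1 in 20. mir-181c was at 340 RPM in HFD-F0 replicate 1, a gap of 0.805 of the range of the HFD-F0 group, whose other libraries lay between 187.2 and 217.0 RPM. That library had the most miRNA reads and, relative to clean reads, the highest summed germ cell, epithelial and muscle hairpins of the 10. Its blood and immune hairpins were not the highest. The lists were not taken relative to miRNA reads, and their part in that library's mir-181c level was not tested. The ratio of mir-181a-1 to mir-181a-2 was 1.013 in CD-F0 replicate 2, a gap of 0.717 of the range of the CD-F0 group, in which the other libraries were all at 1.011.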

How the results depend on the processing

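No miR-181 hairpin passed the p and fold change thresholds under any alternative run: DESeq2, clean reads as library size with no TMM, miRNA features only, a minimum of 10 counts per sample, no filter, genome-matched reads only, a replicate block, or any sample left out. Counting error was small with each read taken as independent, and the main limits are the 5 samples per group and the division of reads between like hairpins. Over all features the count of calls was 30, against 93 without a filter, 19 with at least 10 counts in every sample and 50 without CD-F0 replicate 5. Among miRNA hairpins it was 15, against 12 in a fit of miRNA features only. Clean reads as library size with no TMM, 2 changes made together, moved the median log2 fold change of all features from −0.01 to 0.09 and turned the log2 fold change of mir-181b-2 to 0.0045 and that of the summed miR-181b copies to 0.00047. The values of the summed miR-181a copies and of mir-181c under that setting were −0.08 and −0.07, and those of mir-181d and mir-181b-1 −0.02 and −0.0030, on the same side of 0 as before. With samples left out in turn, mir-181b-2 and the summed miR-181b copies ranged from −0.23 to 0.0061 and from −0.23 to 0.00055, the highest values being those without CD-F0 replicate 1. The RPM difference of the miR-181b copies, 0.0361, became −0.937 relative to annotated reads, −46.6 relative to miRNA reads and, chosen after seeing the data, −6.84 relative to genome-matched reads (all as RPM), and ranged from −4.49 to 4.10 RPM with samples left out. That of the miR-181a copies ranged from −99.6 to 19.6 RPM, turning positive without CD-F0 replicate 3 (19.6) or HFD-F0 replicate 5 (5.02). For mir-181c, the log2 fold change ranged from −0.34 to −0.15 with samples left out, and the RPM difference without HFD-F0 replicate 1 was −39.2. The log2 ratio differences ranged from −0.18 to 0.05 for the miR-181a to miR-181b copies (0.054 without CD-F0 replicate 3). For mir-181a-1 to mir-181a-2 they ranged from −0.0050 to −0.0026. Without HFD-F0 replicate 2 that ratio had p = 0.00794 (exact permutation test), which restates that the groups then do not overlap. The range was −0.0093 to 0.00093 for mir-181b-1 to mir-181b-2. For mir-181c to mir-181d it was −0.18 (without HFD-F0 replicate 1) to −0.01 (without CD-F0 replicate 2), around −0.09 with all samples. The steps in the order of levels were 1.68, 1.55 and 1.004 on the log2 scale in CD-F0 samples alone and 1.70, 1.44 and 1.03 in HFD-F0 samples alone, and the first and second steps had p = 0.0625 in the exact permutation test, the smallest that 5 libraries allow. The last step, from the miR-181b copies to mir-181d, is given with no test, since reads can be shared between these hairpins. The size of the second step depends on that sharing too. The share of such reads was not measured. The causes of these shifts were not tested.

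The samples share replicate numbers, but their deviations from the group means correlated at 0.44, −0.01, 0.33, −0.22 and −0.06 for numbers 1 to 5, and 2 of 5 HFD-F0 samples correlated best with their own number, so the numbers were not taken to pair them. With the number as a replicate block, edgeR called 0 of the 6 hairpins and 25 features in all, and the log2 fold changes were −0.17 for the summed miR-181a copies, −0.09 for the summed miR-181b copies and −0.20 for mir-181c.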
